A study of Mus musculus with 2 samples.

Results

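The Dll1 Spdef cells of the mouse small intestine were 1666 single cells in which transcripts of Dll1 and of Spdef were found together. They were chosen from the sequenced Tomato+ cells by a count of molecules. A cell belonged to the group if it held at least 2 unique molecular identifiers (UMIs, each standing for 1 captured transcript) of Dll1, at least 2 of Spdef and 0 of Neurog3, and if genes with symbols beginning Defa, the Paneth cell defensins, made up less than 10% of its UMIs. A barcode was kept when 500 genes or more and 1000 UMIs or more were found in it, of which mitochondrial transcripts took no more than 25%. These 1666 cells were taken from 8761 kept cells in all.

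The data came from 2 single-cell RNA-Seq libraries, each made from the whole small intestine of 4 to 5 mice aged 4 to 6 weeks, pooled before sorting. WT mice carried Neurog3Cre and Rosa26tdtomato, and NFKO mice carried Neurog3Cre-FoxO1 f/f and Rosa26tdtomato, so that the Cre driver and the red reporter were shared by both groups and the floxed FoxO1 alleles were not. Neurog3 is the transcription factor that starts the endocrine program, and Cre driven by it marks only cells whose history includes Neurog3 transcription, so the libraries hold the Neurog3 lineage and not the whole epithelium. Tomato+ cells were sorted from the dissociated tissue and 3′ ends of transcripts were counted. With 1 library per genotype there was no replicate check on any difference between genotypes, and no test was run. Intervals below are 95% intervals that cover counting error only: exact Poisson for a level, exact binomial (Clopper-Pearson) for a share, and exact conditional binomial for a ratio. Differences between cells, mice, sorts and library preparations are not in the intervals on levels and ratios of UMIs. Those between mice, sorts and library preparations are not in the intervals on shares either. The FoxO1 f/f library is named by its label, NFKO, for the reason given with Foxo1.

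The 2 libraries were close in depth and different in sex. A kept cell held a median of 17405 UMIs in WT and 17190 in NFKO. Of 678 WT Dll1 Spdef cells, 617 carried male and 0 carried female sex-linked transcripts, while of 988 NFKO cells, 74 typed as male and 880 as female. Sex and genotype therefore could not be told apart in the pooled comparison, and values within male-typed cells are given where they moved a result. The libraries shared 6 barcodes, none of which was a Dll1 Spdef cell in both. A doublet score marked 31 WT (4.57%) and 66 NFKO (6.68%) Dll1 Spdef cells. These were kept here and left out as an alternative.

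Crypt cells choose between absorptive and secretory fates through Notch signaling. A cell that carries the ligand Dll1 activates Notch receptors on its neighbors and holds them back from secretory fate, while Atoh1, a basic helix-loop-helix transcription factor, drives the ligand-bearing cell toward goblet, Paneth, tuft or endocrine fate. Spdef is an Ets family factor that acts after Atoh1 and promotes goblet and Paneth maturation. Dll1 together with Spdef is thus a pairing of an early lateral-inhibition ligand with a later maturation factor.

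Dll1 lies at chr17:15367354-15376872 and Spdef at chr17:27714352-27728955, both on the minus strand (GRCm38, GENCODE M21). The other given markers are Creb3l1 at chr2:91982328-92024502 and Cmtm7 at chr9:114756836-114781856, also minus strand. Creb3l1 encodes a membrane-bound transcription factor of secretory cells, and Cmtm7 a membrane protein of the chemokine-like factor family. Promoters were looked up for 6 genes (Dll1, Spdef, Creb3l1, Cmtm7, Atoh1 and Gfi1) in RefSeq (GRCm38.p6), and 5 had an entry. The promoters of Dll1, Spdef and Cmtm7 are shown because the cells were gated on the first pair and because Cmtm7 was a marker of the gate. Each sequence is the 250 bases before a transcription start, written 5′ to 3′ on the gene's strand. Capitals mark CAGCTG, a form of the E box CANNTG that Atoh1 is known to bind. Both motifs were searched on both strands, and every CAGCTG is also a CANNTG.
Dll1, chr17:15376933-15377182, minus strand: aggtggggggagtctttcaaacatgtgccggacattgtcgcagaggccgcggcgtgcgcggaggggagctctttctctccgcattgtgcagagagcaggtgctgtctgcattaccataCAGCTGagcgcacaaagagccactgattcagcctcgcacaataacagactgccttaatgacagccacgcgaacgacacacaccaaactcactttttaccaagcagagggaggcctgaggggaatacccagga
Spdef, chr17:27728952-27729201, minus strand: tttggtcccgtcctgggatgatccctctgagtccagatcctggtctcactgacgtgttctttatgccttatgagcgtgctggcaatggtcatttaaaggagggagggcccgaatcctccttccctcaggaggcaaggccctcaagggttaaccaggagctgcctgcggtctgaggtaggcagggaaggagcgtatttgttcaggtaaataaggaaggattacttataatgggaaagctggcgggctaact
Cmtm7, chr9:114781994-114782243, minus strand: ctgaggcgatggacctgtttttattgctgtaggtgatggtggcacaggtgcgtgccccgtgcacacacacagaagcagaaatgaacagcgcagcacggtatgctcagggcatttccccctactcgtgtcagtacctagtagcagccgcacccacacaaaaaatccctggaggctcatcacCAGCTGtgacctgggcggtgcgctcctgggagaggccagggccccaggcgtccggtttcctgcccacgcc

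The Dll1 window shown held 3 E boxes, of which 1 was CAGCTG, beginning 132 bases upstream of the start. The Cmtm7 promoter held 2 E boxes, of which 1 was CAGCTG, 70 bases upstream. RefSeq gives Dll1 another start, whose window (chr17:15375824-15376073, not shown) held 1 E box and 0 CAGCTG. The Spdef window and that of Atoh1 (chr6:64728875-64729124, plus strand) held 0. CANNTG was present in 66.2% and CAGCTG in 13.0% of all 32851 promoter windows of this length, so that a match is common and describes the letters only.

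Foxo1, the gene deleted in NFKO mice, was counted at the same level in Dll1 Spdef cells of both libraries. Its level was 10.8 CPM (counts scaled to a total of 1000000 UMIs, from 245 UMIs, interval 9.52 to 12.3) in WT and 10.5 CPM (349 UMIs, 9.42 to 11.7) in NFKO, a ratio of 0.969 (0.820 to 1.15). In male-typed cells the ratio was 1.30. The related factors Foxo3 and Foxo4 were lower in NFKO, at ratios of 0.712 (0.587 to 0.864) and 0.661 (0.545 to 0.802). Foxo6 was scarce, with 9 and 38 UMIs. Foxo1 lies at chr3:52268336-52353221 on the plus strand, and a kit that counts 3′ ends can count a transcript with an internal deletion, so the counts neither bear out nor contradict the genotype label. This is why the library is called by its label.

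Dll1 Spdef cells made up 678 of 3129 kept WT cells (21.7%, 20.2 to 23.2%) and 988 of 5632 kept NFKO cells (17.5%, 16.6 to 18.6%), a share ratio of 0.810 (0.734 to 0.894). Cells that had at least 2 Spdef UMIs but 0 of Dll1 were a larger share of NFKO, 525 cells (9.32%) against 207 (6.62%) in WT, a ratio of 1.41 (1.20 to 1.66). Cells with at least 2 Neurog3 UMIs were 8.43% of NFKO and 6.49% of WT, a ratio of 1.30 (1.10 to 1.54). Dll1 cells that lacked Spdef were few, 58 in WT and 79 in NFKO, a ratio of 0.757 whose interval (0.532 to 1.08) includes no difference.

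**Figure D1:**
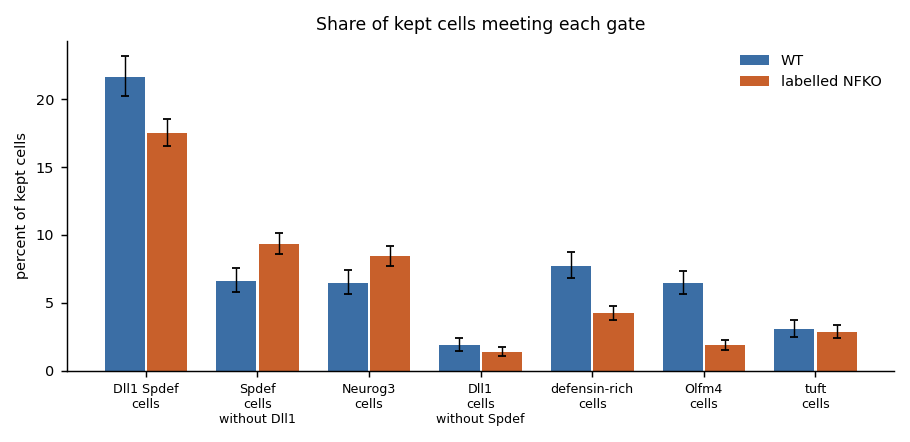
Percent of kept cells meeting each gate in WT (blue) and in the library labelled NFKO (orange), with bars from 0 and exact binomial intervals on counting error only. Dll1 Spdef cells were the largest of the gated groups in both libraries, at 21.7% and 17.5%.

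These shares depend on depth, since a gate of 2 UMIs is met more often in a deeply sequenced cell. Dll1 Spdef cells had a median of 27850 UMIs in WT and 30630 in NFKO, against 14253 and 14681 in the other kept cells. With every cell thinned to 10000 UMIs before gating, the share was 7.88% in WT and 6.68% in NFKO, a ratio of 0.848 (0.700 to 1.03). With only cells of at least 20000 UMIs it was 40.3% and 38.2%, a ratio of 0.947 (0.852 to 1.05). Both of these intervals include 1. At 10000 UMIs a Dll1 Spdef cell had a median of 2742 genes in WT and 2836 in NFKO, fewer than the 2944 and 3063 of the other kept cells.

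The gating counts themselves are a description of the selection. Dll1 had a median of 3 UMIs per cell in each library and reached 22 in WT and 21 in NFKO, and 195 WT cells (28.8%) and 287 NFKO cells (29.1%) held exactly the 2 UMIs required. Spdef had a median of 6 UMIs in WT and 8 in NFKO, and 75 (11.1%) and 47 (4.76%) cells held exactly 2. Just outside the gate were 223 WT and 430 NFKO cells with at least 2 Spdef UMIs and 1 Dll1 UMI. Another 12 WT and 49 NFKO cells met the gate on both genes but held Neurog3, and 39 and 26 exceeded the defensin limit.

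Creb3l1 and Cmtm7, the given markers that the gate did not use, were both higher in Dll1 Spdef cells than in the other kept cells. The markers were set with earlier results of these data known, so their levels are a description and not separate evidence. The Creb3l1 level was 219 CPM in WT and 266 CPM in NFKO, against 64.6 and 84.5 CPM elsewhere, ratios of 3.39 (3.25 to 3.53) and 3.15 (3.05 to 3.25). The Cmtm7 level was 69.5 and 109 CPM against 20.6 and 27.9 CPM, ratios of 3.37 (3.13 to 3.63) and 3.89 (3.69 to 4.10). Thinned to 10000 UMIs, which left out 15 WT and 22 NFKO members, 85.7% of WT and 89.1% of NFKO members held a Creb3l1 UMI (97.5% and 98.3% unthinned). Tuft cells, chemosensory cells that should lack goblet genes, were taken as a guide to background. Of these, 6.45% of 31 thinned WT and 15.9% of 132 thinned NFKO cells held Creb3l1. The tuft gate set no defensin limit, and Paneth genes summed to 6144 CPM in WT and 63600 CPM in NFKO tuft cells. Free RNA and doublets cannot be told apart in the tuft shares given here and below. Tuft cells were shallower before thinning, with medians of 7428 and 18020 UMIs. For Cmtm7 the thinned shares were 48.4% and 61.8% (78.3% and 87.6% unthinned) against 19.4% and 24.2% in tuft cells.

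The cells were not limited to early markers. Muc2, the gel-forming mucin of goblet cells (chr7:141690340-141754693, plus strand), was at 4057 and 3904 CPM, with a median of 100 UMIs per cell in WT and 81 in NFKO. Agr2, a disulfide isomerase needed to fold that mucin, was at 18710 and 23950 CPM, and the trefoil peptide Tff3 at 24490 and 23340 CPM. The goblet products Zg16, a lectin, and Clca1, a secreted metalloprotease, were uneven: Zg16 had a median of 10 and 21 UMIs per cell and a maximum of 4988 and 12700. Muc2 was found in 99.5% of WT and 99.0% of NFKO members at 10000 UMIs (99.9% in each unthinned), against 38.7% and 75.8% of tuft cells. The given name, secretory progenitors, calls for more than these markers show: goblet products were present throughout, and Creb3l1, Cmtm7 and Atoh1 did not pass the threshold used below against Spdef cells without Dll1. The cells are therefore named by their gate.

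Against all other kept cells, some genes of secretory transcription, protein folding, mucin glycosylation and the G2 and M phases were higher in Dll1 Spdef cells, and most endocrine, Paneth and enterocyte genes that could be counted were lower. A gene was counted when its CPM ratio was at least 2, or at most 0.5, in each library. Genes eligible for the count had at least 50 CPM in 1 of the compared groups and at least 100 UMIs over both, in each library, and the gating genes were not counted. Of 2542 eligible genes, 110 were higher (4.33%) and 98 lower (3.86%). The median gene had a log2 ratio of 0.44 in WT and 0.31 in NFKO, while the Paneth genes summed to 215500 and 105200 CPM in the other cells and to 26230 and 17080 CPM in Dll1 Spdef cells. With 22 abundant genes left out of the scaling, these medians fell to 0.14 and 0.11, and 29 genes were higher and 178 lower, so list medians below should be read against the shift.

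Among 18 secretory transcription factors, 12 were eligible, of which 3 were higher and 1 lower. Atoh1 was at 135 and 208 CPM against 43.3 and 82.5 CPM, ratios of 3.11 (2.95 to 3.27) and 2.52 (2.44 to 2.60). Creb3l1 and its relative Creb3l4 (110 and 133 CPM, ratios of 2.62 and 2.81) were the others. Sox4, a factor of early endocrine precursors, was the lower gene, at 46.8 and 41.7 CPM against 146 and 206 CPM. Gfi1, a zinc finger repressor downstream of Atoh1, was below the level for counting, at 28.7 and 35.1 CPM, with ratios of 3.19 and 3.41. The median over the 12 was 0.68 in WT and 0.62 in NFKO on the log2 scale. These 3 factors stayed past the threshold with abundant genes left out of the scaling.

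Machinery of the secretory pathway made up much of the top of the ranking. Of 24 endoplasmic reticulum folding genes, 22 were eligible and 8 were higher, with none lower and a median log2 ratio of 0.98 in WT and 0.91 in NFKO. Pdia5, a disulfide isomerase, was at 167 and 193 CPM, ratios of 3.25 and 3.31, and its relative Txndc5 at 836 and 1006 CPM, ratios of 2.94 and 2.61. Kdelr3, which returns escaped proteins from Golgi to endoplasmic reticulum, had ratios of 2.71 and 2.60. Of 19 mucin glycosylation and secretion genes, 14 were eligible and 6 were higher, with a median of 1.21 and 0.94. Galnt12, which starts O-linked glycans on mucins, was at 226 and 283 CPM, ratios of 2.94 and 2.58, and its relative Galnt5 had ratios of 2.94 and 2.66. With abundant genes left out of the scaling, 2 folding genes and 3 mucin genes were still past the threshold.

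Of 22 G2 and M phase genes, 8 were eligible and 7 were higher, with a median log2 ratio of 1.12 in WT and 2.04 in NFKO. With abundant genes left out of the scaling none of the 8 was past the threshold, although all 8 stayed above the other cells in both libraries.

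The highest ratios otherwise belonged to Agr2 (3.412 and 3.401), Hsd11b2 (3.04 and 3.27), Tnfaip8 (3.51 and 2.96), Smim5 (3.03 and 2.72), Rep15 (3.29 and 2.71), Golm1 (2.63 and 2.73) and Tmem123 (2.60 and 2.74). Hsd11b2 inactivates glucocorticoids, and Rep15 is an effector of Rab15 in receptor recycling. Agr2 was the most abundant gene of this set by far. A cell held a median of 592 Agr2 UMIs in WT and 775.5 in NFKO.

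Endocrine genes were low. Of 20 enteroendocrine genes, 16 were eligible and all 16 were lower, with a median log2 ratio of -3.41 in WT and -3.49 in NFKO, and the 5 eligible endocrine transcription factors of 15 were lower too. Ghrl, which encodes the hormone ghrelin, was at 63.4 and 210 CPM against 1941 and 5334 CPM, and Cck, which encodes cholecystokinin, at 132 and 357 CPM against 2813 and 6745 CPM. Of 13 Paneth genes, 7 were eligible and 4 were lower, and lysozyme (Lyz1) was at 609 and 400 CPM against 13370 and 7102 CPM. The other kept cells include the defensin-rich cells that the gate left out, whose Paneth genes summed to 593900 and 562200 CPM. Low Paneth genes are therefore part of the selection. Against Spdef cells without Dll1, which met the same defensin limit, 6 Paneth genes were eligible and 0 passed. The rest of the bottom of the ranking was Gm15293, Gm14851, Gm15292, AY761184, Mptx2, Ang4 and Pnliprp2. The first 4 are related to the defensins that the gate limited and may share reads with them, so their low levels are part of the selection. Of 16 enterocyte genes, 12 were eligible and 9 were lower. Of 17 stem genes, 5 were eligible and none passed in either direction.

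**Figure D2:**
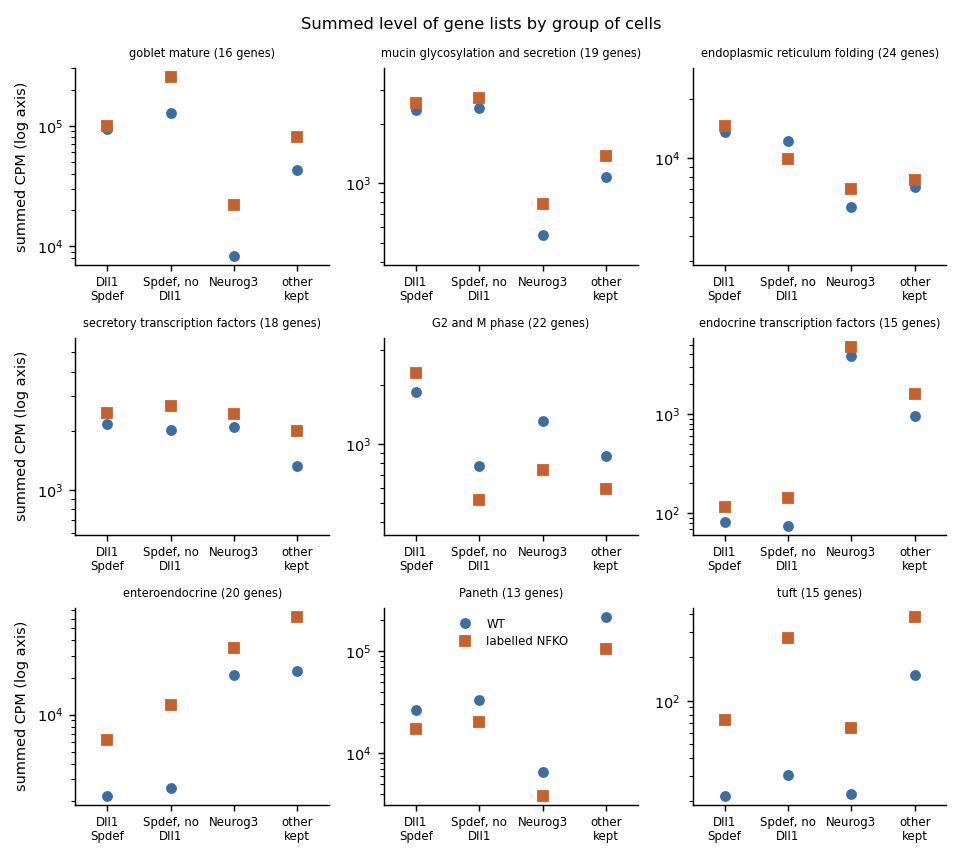
Summed level of each gene list in CPM (log axes) in Dll1 Spdef cells, Spdef cells without Dll1, Neurog3 cells and all other kept cells, for WT (circles) and the library labelled NFKO (squares). Among the groups drawn, the summed G2 and M phase genes were highest in Dll1 Spdef cells in both libraries (1851 and 2317 CPM). Summed goblet genes were highest in Spdef cells without Dll1 (128500 and 254700 CPM). Cells with at least 10 Olfm4 UMIs and defensins below the limit, not drawn, had higher G2 and M phase sums (3021 and 2895 CPM).

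Mature goblet genes were placed between. Of 16, 14 were eligible, 3 were higher (Agr2, Guca2a and Ccl9) and none was lower, and the median was 1.08 in WT but 0.54 in NFKO. Muc2 was 2.06 times the level of other cells in WT and 0.853 times in NFKO. Zg16 (1.71 and 0.569) and Clca1 (1.92 and 0.599) likewise lay on opposite sides of 1. The levels of these 3 genes differed less between the libraries within Dll1 Spdef cells than in the other cells. Zg16 was at 5840 CPM in other WT cells and 26980 CPM in other NFKO cells.

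The nearest comparison was with Spdef cells that held 0 Dll1 UMIs, met the same limits on Neurog3 and defensins, and numbered 207 in WT and 525 in NFKO. Genes of the G2 and M phases were higher in Dll1 Spdef cells, and the goblet products Zg16 and Clca1 were lower. Of 2432 eligible genes, 9 were higher (0.37%) and 3 lower (0.123%), while the median log2 ratio was 0.11 in WT and 0.38 in NFKO (0.02 and 0.07 with abundant genes left out). All 9 higher genes are known cell cycle genes. The counts were of unequal strength between libraries: 87 genes passed in NFKO alone and 46 were lower there, and no gene was higher when cells were thinned to 10000 UMIs before gating.

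Of 22 G2 and M phase genes, 8 were eligible and 7 were higher (Mki67, Top2a, Cenpa, Cenpf, Birc5, Ube2c and Hmgb2), with a median log2 ratio of 1.19 in WT and 2.27 in NFKO, and the same 7 passed with abundant genes left out of the scaling. Mki67, which coats mitotic chromosomes (chr7:135689784-135716361, minus strand), was at 153 and 133 CPM against 62.1 and 23.1 CPM, ratios of 2.46 (2.20 to 2.75) and 5.76 (5.08 to 6.57). Cenpf, a kinetochore protein, was at 65.7 CPM in both libraries against 18.6 and 8.59 CPM, ratios of 3.54 and 7.64. Ube2c, which feeds the anaphase-promoting complex, was at 152 and 264 CPM against 54.8 and 55.6 CPM. The other higher genes were Cdca3 (2.26 and 3.56) and Cdca8 (2.18 and 4.03), and Cdk1 missed the threshold at 1.999 in WT, with 4.90 in NFKO. Of 20 S phase genes, 2 were eligible and none passed, and Tyms, which makes thymidylate, had ratios of 1.34 and 2.95. Mki67 was found in 29.9% of WT and 33.5% of NFKO members at 10000 UMIs (40.4% and 47.5% unthinned), against 12.9% and 10.6% of tuft cells.

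The 3 lower genes were Zg16, Clca1 and Clec2h, a lectin-like membrane protein of the gut. Zg16 was at 10010 and 15340 CPM against 23710 and 105300 CPM in Spdef cells without Dll1, ratios of 0.422 and 0.146. Clca1 was at 715 and 908 CPM against 1441 and 5471 CPM, and Clec2h at 95.1 and 95.6 CPM against 197.5 and 302.6 CPM. Among 16 goblet genes, 15 were eligible, 2 passed as lower and none as higher, with a median of -0.35 and -0.61. Rgs2, Lgals3, Spink1, Ramp1, Cck, Krt20 and Gsn ranked next and missed the threshold in WT. The folding genes (22 eligible, median 0.15 and 0.64) and the mucin genes (14 eligible, median 0.05 in each library) had none past the threshold, and neither had the 10 eligible secretory transcription factors. Atoh1 ratios were 1.19 and 1.01, and Creb3l1 ratios 1.35 and 1.79.

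Levels were also laid out by the number of Dll1 UMIs in a cell, among cells with at least 2 Spdef UMIs, no Neurog3 and few defensins. This describes the same cells by a gating count, with genes taken from the comparison above, and is not separate evidence. The Zg16 level in WT was 23710 CPM at 0 Dll1 UMIs, 20170 at 1, 17500 at 2, 9937 at 3 to 4 and 3728 at 5 or more. In NFKO it was 105300, 54280, 29740, 13660 and 5044 CPM. Each step was lower than the one before it in both libraries, and the libraries, which differed more than 4-fold at 0 Dll1 UMIs, came close together at 5 or more. Clca1 went from 1441 to 407 CPM in WT and from 5471 to 421 CPM in NFKO, and Muc2 from 6164 to 3174 CPM and from 13580 to 2455 CPM.

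Mki67 went the other way. In WT its level was 62.1, 120, 115, 145 and 197 CPM over the same steps, and in NFKO 23.1, 56.2, 76.6, 119 and 203 CPM. Expressed as the level at 5 or more Dll1 UMIs over that at 0, Mki67 was 3.16 in WT and 8.76 in NFKO, Top2a 2.89 and 7.82, Zg16 0.157 and 0.0479, and Clca1 0.282 and 0.0769. The median over 2541 genes was 1.13 and 1.37. Among regulators, Creb3l1 (1.60 and 1.98), Dll4 (1.97 and 1.90) and Cmtm7 (1.36 and 2.19) were above 1, while Atoh1 was 1.35 in WT and 1.03 in NFKO. Depth also increased along the steps, from a median of 24964 to 28589 UMIs per cell in WT and from 20050 to 32330 in NFKO, and its part in the gradient was not tested beyond the next comparison. In cells of at least 20000 UMIs, with marked doublets left out and in male-typed cells, the directions were kept for each of these genes except Atoh1 in male-typed NFKO cells (0.873).

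**Figure D3:**
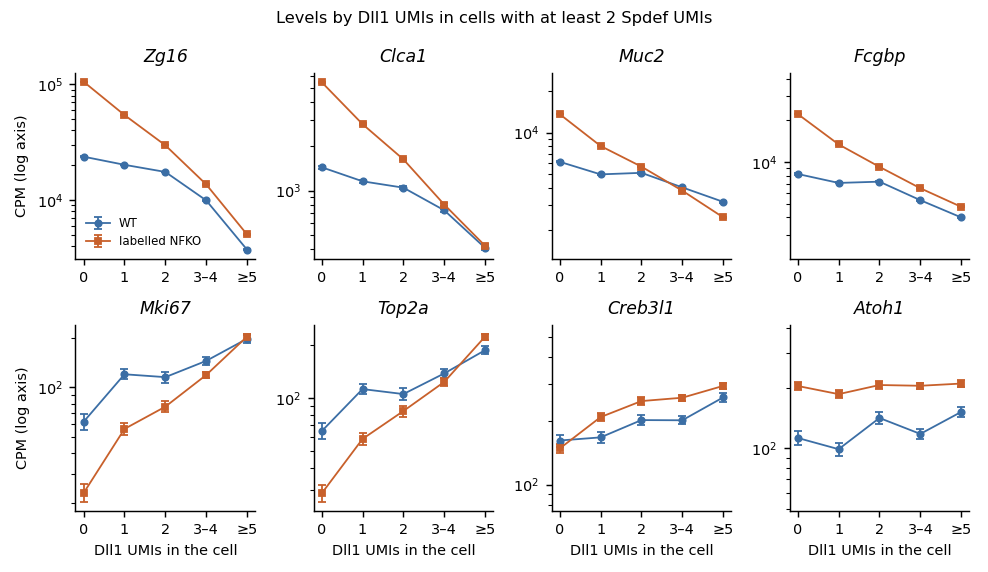
Level in CPM (log axes) of goblet genes, proliferation genes, Creb3l1 and Atoh1 by the number of Dll1 UMIs in the cell, with Poisson intervals on counting error, for WT (circles) and the library labelled NFKO (squares). Zg16 went down at each step, from 23710 to 3728 CPM in WT and from 105300 to 5044 CPM in NFKO, while Mki67 at 5 or more Dll1 UMIs was 197 and 203 CPM.

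Mitotic and goblet transcripts also divided the Dll1 Spdef cells among themselves. At 10000 UMIs, 198 WT and 324 NFKO members held Mki67 and 465 and 642 did not. Those with Mki67 were deeper before thinning, with medians of 36426 and 35656 UMIs against 26962 and 29900, and the part of depth in the differences was not tested beyond the thinning that set the classes. Zg16 was at 2739 and 4246 CPM in members with Mki67 and at 14720 and 22010 CPM in those without. Muc2 was at 2282 and 1937 CPM against 5160 and 4936 CPM. Agr2 was also lower with Mki67, at 12250 and 17270 against 23000 and 28370 CPM, whereas Olfm4, a marker of crypt base stem cells, was higher, at 413 and 208 against 129 and 46.4 CPM. Dll4 was alike in both classes (53.2 and 51.7 CPM with Mki67, 53.5 and 47.4 CPM without), and so was Creb3l1 in NFKO (263 and 268 CPM).

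Divided instead by Clca1, 272 WT and 369 NFKO members held 0 Clca1 UMIs at 10000 UMIs, 210 and 363 held 1 to 9, and 181 and 234 held at least 10. Zg16 was at 838 and 1774 CPM in the first class, 7059 and 6624 in the second and 31670 and 49410 in the last. Mki67 ran from 214 and 172 CPM down to 49.1 and 44.9 CPM, and Olfm4 from 446 and 158 CPM down to 22.6 and 25.9 CPM. Klf4, a factor of goblet maturation and cell cycle exit, ran up from 311 and 335 CPM to 526 and 480 CPM, and Cdkn1a, a cyclin-dependent kinase inhibitor, from 121 and 70.3 CPM to 262 and 212 CPM. Sox4 and Sox9, factors of immature crypt cells, ran down, Sox9 from 188 and 125 CPM to 118 and 59.1 CPM. Atoh1 changed little across the classes, from 132 and 219 CPM to 134 and 190 CPM. The classes had similar depth, with medians between 26522 and 30974 UMIs. The summed G2 and M phase genes were at 2513 and 2944 CPM in members with 0 Clca1 UMIs and at 603.6 and 988.9 CPM in those with at least 10, a lower level and not an absence.

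Dll1 cells differed along the number of Spdef UMIs as well. Those with 0 Spdef UMIs carried endocrine transcripts, with Chga, an endocrine granule protein, at 740 and 984 CPM and Neurod1, an endocrine transcription factor, at 340 and 484 CPM. Those with 6 or more Spdef UMIs had Chga at 33.6 and 51.1 CPM and Neurod1 at 27.2 and 22.3 CPM.

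Neurog3 cells (at least 2 Neurog3 UMIs, defensins below the limit) numbered 203 in WT and 475 in NFKO. Against them, goblet genes were higher in Dll1 Spdef cells and endocrine transcription factors lower. The gate required Spdef and excluded Neurog3, so these directions are partly set by the selection. Enteroendocrine genes still summed to 2209 and 6194 CPM in Dll1 Spdef cells, against 20930 and 34470 CPM in Neurog3 cells. Of 3284 eligible genes, 273 were higher (8.31%) and 500 lower (15.2%), with a median log2 ratio of -0.25 in each library (-0.10 and -0.14 with abundant genes left out). All 14 eligible goblet genes were higher, with a median of 3.53 in WT and 2.04 in NFKO, as were 10 of 14 mucin genes and 12 of 22 folding genes. Agr2 had ratios of 23.7 and 9.35, Fkbp11, a chaperone of secretory cells, 16.7 and 9.56, Guca2a, the guanylin hormone precursor, 12.4 and 9.74, and the chemokines Ccl9 and Ccl6 16.4 and 9.92 and 17.9 and 9.52. Tpsg1, Kdelr3, Galnt5 and Lrrc26 completed the top 10.

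Atoh1 was among the 10 highest in this comparison, at 135 and 208 CPM against 8.44 and 27.9 CPM, ratios of 16.0 and 7.44. Among 14 eligible secretory transcription factors, Atoh1, Creb3l1, Creb3l4 and Klf4 were higher and Foxa2, Sox4 and Tox3 lower. All 13 eligible endocrine transcription factors were lower, with a median of -5.62 and -5.09. Neurod2 was at 0.354 and 0.511 CPM against 112 and 114 CPM, and Pax4, a factor of early endocrine precursors, at 0.265 and 1.02 CPM against 77.0 and 128 CPM. Ooep, Tubb3, Dbn1, Nefm, Olfm1, Plb1 and Ghrl were also among the lowest genes, of which Tubb3, Dbn1 and Nefm are cytoskeletal genes of neurons and endocrine cells.

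Cell cycle inhibitors were lower than in Neurog3 cells. Of 8 eligible cell cycle exit genes, Cdkn1a, Cdkn1b, Cdkn1c and Btg2 were lower and Cdkn2b higher. Cdkn1a was at 177 and 116 CPM against 944 and 1487 CPM, and Cdkn1c at 14.99 and 31.5 CPM against 579 and 972 CPM. None of the 8 eligible G2 and M phase genes passed the threshold in this comparison, with a median of 0.53 in WT and 1.71 in NFKO, and Mki67 ratios were 1.27 and 3.37. The 5 eligible Paneth genes were higher than in Neurog3 cells. Of 16 eligible enteroendocrine genes 9 were lower and 1, Pyy, was higher, and most of the Pyy UMIs of members came from 3 cells (87.0% in WT and 57.5% in NFKO).

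Of the Notch pathway, summed ligands (182.5 and 181 CPM) exceeded summed receptors in Dll1 Spdef cells, with Dll1 required by the gate. Summed ligands also exceeded summed receptors in Neurog3 cells (93.05 and 114.5 against 23.4 and 14.57 CPM). Dll4, the other ligand known to act in crypts, was at 53.7 CPM in WT and 49.3 CPM in NFKO, 2.18 and 1.56 times the other kept cells. Against Neurog3 cells the Dll4 log2 ratio was 0.15 in WT and -0.27 in NFKO. Dll3, Jag1 and Jag2 were at or below 5.02 CPM. Receptor levels were low, with Notch1 at 5.31 and 2.80 CPM and Notch2 at 1.55 and 0.872 CPM, and the 4 receptors summed to 10.5 and 7.22 CPM, against 13.5 and 9.21 CPM in the other cells. The Notch target Hes1 was at 48.6 and 33.4 CPM, with ratios of 1.06 and 1.29 to the other cells, and Hes6, an antagonist of Hes1, was at 98.5 and 132 CPM, lower than the 221 and 255 CPM of Neurog3 cells. No receptor reached the level for counting, nor did any ligand other than Dll1 in the comparison with other kept cells, and no eligible gene of Notch processing or of the Notch effectors passed the threshold in any comparison.

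Between the libraries, few genes of the Dll1 Spdef cells passed the 2-fold threshold. Of 2707 genes eligible with at least 50 CPM in 1 library, 25 were higher in NFKO (0.924%) and 18 lower (0.665%), and the median log2 ratio was 0.08. Unlike in the comparisons above, the gating genes Dll1, Spdef and the Defa genes were counted here, although the gate bounded their levels in both libraries. No goblet gene of 15 eligible, mucin gene of 14, folding gene of 22, secretory transcription factor of 11, G2 and M phase gene of 10 or S phase gene of 3 passed the 2-fold threshold in either direction, with medians of 0.07, 0.04, 0.10, 0.28, 0.59 and 0.03 on the log2 scale. Muc2 had a ratio of 0.962 (0.954 to 0.970), Agr2 1.28 and Zg16 1.53 (1.53 to 1.54). Wnt genes (3 eligible), cell cycle exit genes (6 eligible) and Notch ligands (2 eligible, with Dll1 among them) also had none. So few of all eligible genes passed that a short list without a call says little about that list.

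Below that threshold the ratios of some regulators stood clear of counting error. Atoh1 was 135 CPM in WT and 208 CPM in NFKO, a ratio of 1.54 (1.48 to 1.61), and 1.46 in male-typed cells. Cmtm7 had a ratio of 1.56, and 1.52 in male-typed cells. Foxa3, a forkhead factor of goblet cells, had 1.40, and Sox9 0.664, with 1.23 and 0.660 in male-typed cells. The stem cell gene Olfm4 was at 240 CPM in WT and 109 CPM in NFKO, a ratio of 0.455, but the ratio was 0.915 in male-typed cells. Hes1 (0.686) and Notch1 (0.527) had male-typed ratios of 1.12 and 1.37, on the other side of 1. In Spdef cells without Dll1 the order was the same for Atoh1 (112.7 CPM in WT and 205.1 in NFKO), Foxa3 (134.5 and 202) and Sox9 (128.9 and 63.6). It was also the same for Olfm4 (320 and 59.4), Hes1 (54.5 and 36.8) and Notch1 (4.46 and 2.47). Cmtm7 was alike there (54.8 and 53.0 CPM). In the cells just outside the gate, with 1 Dll1 UMI, Cmtm7 was higher in NFKO (54.9 CPM in WT and 82.3 in NFKO). The differences were therefore not particular to Dll1 Spdef cells. Whether the differences between the libraries came with genotype, sex or library preparation cannot be told apart.

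The most different genes fell into few kinds. Heat shock genes were lower in NFKO: of 16 eligible heat shock and immediate early genes, Hspa1a, Hspa1b, Dnajb1, Hsph1 and Hsp90aa1 were lower and none higher, with a median of -0.43. Hspa1a, an inducible chaperone (chr17:34969190-34972156, minus strand), was at 434 CPM in WT and 27.2 CPM in NFKO, a ratio of 0.0628 (0.0586 to 0.0672), and was found in 75.7% of WT and 10.8% of NFKO members at 10000 UMIs (83.9% and 15.9% unthinned). Tuft cells showed the same order, with 41.9% and 4.55% of cells. In Spdef cells without Dll1 the levels were 369 and 13.3 CPM. The Hspa1a difference was therefore not particular to Dll1 Spdef cells, with NFKO over WT ratios as far from 1 in these other groups.

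Areg and Hbegf, ligands of the epidermal growth factor receptor, were lower in NFKO. Areg (chr5:91139599-91148432, plus strand) was at 133 CPM in WT and 47.3 CPM in NFKO, a ratio of 0.356 (0.335 to 0.378), and 0.349 in male-typed cells. A UMI of it was found in 44.0% of WT and 21.8% of NFKO members at 10000 UMIs (58.6% and 33.6% unthinned), against 3.23% and 2.27% of tuft cells. Hbegf was at 96.1 and 38 CPM, a ratio of 0.396. Spdef cells without Dll1 also had less Areg in NFKO, at 58.9 against 119 CPM. The other lowest genes were Gcg, mt-Atp8, Rnd3 and Gm42418.

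The gene with the highest ratio was Gm10260, with 9 UMIs in WT and 3578 in NFKO, a ratio of 270 (142 to 592). It was at 108 CPM in NFKO Dll1 Spdef cells and at 109 CPM in NFKO Neurog3 cells, and was in 41.0% of NFKO members and 44.7% of NFKO tuft cells at 10000 UMIs. Mptx1, a pentraxin of the mucosa (chr1:174330518-174332873, plus strand), was at 22.4 CPM in WT and 1444 CPM in NFKO, a ratio of 64.4 (59.0 to 70.4), and 75.7 in male-typed cells. It was found in 5.13% of WT and 38.9% of NFKO members at 10000 UMIs (11.8% and 59.5% unthinned), against 0 of 31 WT tuft cells and 19.7% of NFKO tuft cells. Isg15, an interferon-induced gene, had a ratio of 3.10 that was 0.875 in male-typed cells. Apoc2, Ocel1 and Gsta4 had ratios of 5.22, 3.59 and 3.59.

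Hormone genes were higher in NFKO: of 12 eligible enteroendocrine genes, 7 were higher (Cck, Gip, Pyy, Nts, Sst, Ghrl and Sct) and 1, Gcg, was lower. Gip, the incretin of duodenal K cells (chr11:96024545-96030831, plus strand), was at 191 CPM in WT and 2022 CPM in NFKO, a ratio of 10.6 (10.3 to 10.9). A Gip UMI was found in 21.9% of WT and 73.4% of NFKO members at 10000 UMIs (54.9% and 96.5% unthinned). Tuft cells held it at least as often, at 32.3% and 80.3%, so these shares do not set the members apart from tuft cells. Whether the Gip UMIs came from free RNA, doublets or the cells themselves was not tested. Ghrl (7.84% and 28.1% of members, 19.4% and 34.8% of tuft cells) and Chga (6.49% and 16.8% of members, 12.9% and 21.2% of tuft cells) were likewise below the tuft shares.

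Few cells held most of the hormone UMIs. The 3 cells with most UMIs of a gene accounted for 73.0% of Gip UMIs in WT and 25.6% in NFKO, 83.4% and 40.0% of Nts, and 85.6% and 75.2% of Ghrl. In male-typed cells 4 of the 7 higher hormone genes lay on the other side of 1: Gip at 0.633 (10.6 over all members), Ghrl at 0.416 (3.32), Cck at 0.512 (2.72) and Sst at 0.313 (2.56). Nts (9.34), Pyy (4.50) and Sct (1.85) stayed above 1. With marked doublets left out the ratios were 7.82 for Gip, 9.43 for Nts, 8.51 for Pyy and 5.87 for Ghrl. Gcg, which encodes proglucagon, was at 383 and 94.8 CPM, with 65.4% and 63.5% of its UMIs in 3 cells.

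**Figure D4:**
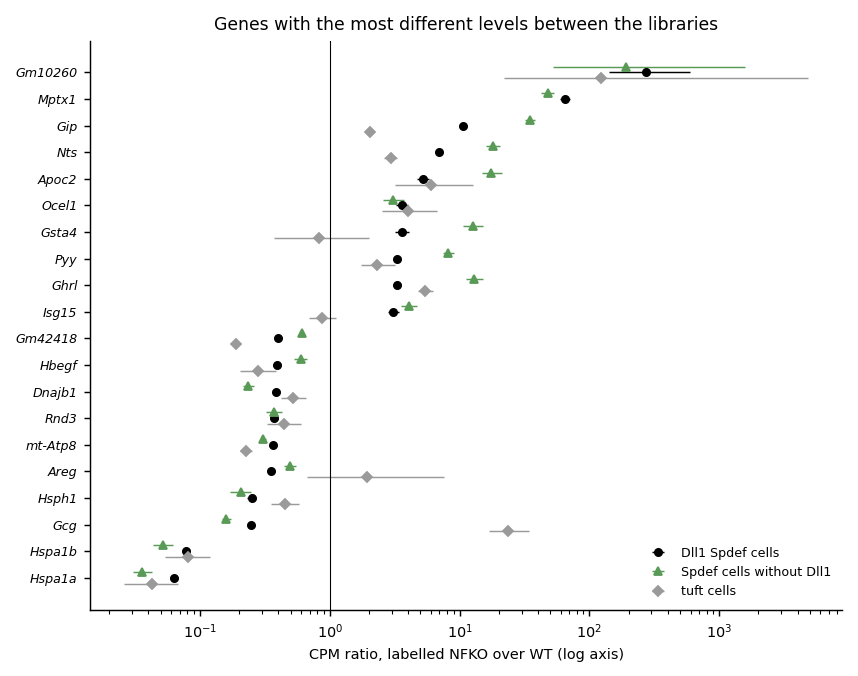
CPM ratio of the library labelled NFKO over WT (log axis) for the 10 highest and 10 lowest genes in Dll1 Spdef cells (black circles), beside Spdef cells without Dll1 (green triangles) and tuft cells (gray diamonds), with intervals on counting error only. Hspa1a (0.0628) and Mptx1 (64.4) were far from 1, and no tuft value is drawn where the WT tuft cells held 0 UMIs, as for Mptx1.

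Paneth genes summed lower in NFKO members (17080 against 26230 CPM), and of 12 eligible members of that list Ang4 and Defa21 were higher, with a median of -0.38. That list includes Defa genes, which the gate limited, so the sum, the median and the Defa21 ratio are partly set by the selection. Enterocyte genes had 1 higher, Rbp2, of 3 eligible (0.786 in male-typed cells), and stem genes 1 lower, Olfm4, of 5. The tuft list summed to 21.9 and 74.0 CPM in members, with 1 of its 15 genes, Il25, at 0 in WT. Of 10 immune genes, 3 were at 0 in WT and 4 in NFKO members, among them the T cell receptor components Cd3e and Cd3g in both.

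Insulin transcripts, which the study sought in the Neurog3 lineage, were hardly captured in the Dll1 Spdef cells. An Ins1 UMI was found in 0 of 678 WT cells and in 0 of 988 NFKO cells. Taking 3 cells as the floor for a count of 0 allows a share of up to 0.442% in WT and 0.304% in NFKO. The exact binomial intervals are wider and reach 0.543% and 0.373%. These limits concern cells with a captured UMI and not cells that express the gene. Ins2 was found in 0 WT cells (exact binomial interval 0 to 0.543%) and in 5 NFKO cells (0.506%, 0.165 to 1.18%), each with 1 UMI. At 10000 UMIs no member held Ins2 in either library, and no tuft cell held it at any depth. The intervals overlap, so a difference between the libraries in Ins2 was not detectable at this depth.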

How the data were processed

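Single-cell RNA-Seq libraries (10x, 3′ ends) were prepared from sorted Tomato+ cells of WT and NFKO mice. Per the submitters' processing notes, the authors aligned reads to mm10 with Cell Ranger 5.0.1 and deposited raw UMI counts per gene and barcode. From these counts, barcodes were filtered (38.1% of WT and 25.3% of NFKO barcodes removed), cells were gated, and UMIs were summed per group and scaled to CPM. The kept cells held 83968252 and 120048549 UMIs. A level at 0 UMIs has a floor of 3 UMIs over the group (0.133 CPM in WT and 0.0902 CPM in NFKO members). Members, lists and comparisons were chosen with earlier results of these data known. Genes named were the 15 highest and 10 lowest against other cells, the 10 highest and lowest in each other comparison, and members of the gene lists, except 1 gene that is not reported here. A comparison with simulated counts (NFKO over WT, 2557 genes) recovered 100 of 100 genes raised and 100 of 100 lowered, and 94.2% of intervals held the true ratio. The simulated counts held Poisson counting error only, and the changes were set well past the 2-fold threshold in well-counted genes. High recovery was thus built in. Spread between cells, mice and libraries was not simulated, so the calls and intervals were not checked against it. Male and female typing used Xist and Y-linked genes. Doublets were scored with Scrublet in scanpy, at an assumed rate of 0.8% per 1000 cells, since the automatic threshold marked 3 of 5632 NFKO cells. Tuft cells held at least 5 UMIs of Dclk1, Trpm5 and Avil together, with no limit on defensins. Positions of 364 of 364 genes matched GENCODE M21. Python 3.11.15, numpy 2.4.6, scipy 1.17.1, pandas 2.3.3, scanpy 1.11.5 and matplotlib 3.10.9 were used.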

Additional observations from a re-analysis of the deposited data

Results flagged for a closer look

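Some genes lay on opposite sides of 1 in the libraries, at least 1.5-fold higher in Dll1 Spdef cells in 1 library and at least 1.5-fold lower in the other. With 1 library per genotype these differences were not tested. Against all other kept cells, the ratio in WT and then in the library labelled NFKO was 1.924 and 0.5986 for Clca1, 1.713 and 0.5686 for Zg16, and 2.277 and 0.612 for Fabp2, a fatty acid binding protein of enterocytes. Against Spdef cells without Dll1 it was 2.017 and 0.5152 for Ghrl, 1.79 and 0.544 for Gip, 1.725 and 0.6655 for Nts, and 16.36 and 0.4457 for Sst. Against Neurog3 cells it was 2.657 and 0.3421 for Gcg. The 5 hormone genes among them had most of their WT UMIs in 3 members, 93.2% for Sst and 65.4% for Gcg.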

How the results depend on the processing

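No paired analysis was possible because each genotype has 1 library. Of 128 recomputed counts and ratios, 89 stayed within 1.5 times the reported count or within the interval, and 39 moved. The share ratio of members was 0.947 in cells of at least 20000 UMIs and 0.733 at a limit of 10% mitochondrial UMIs. The Foxo1 ratio was 0.576 with thinning before gating and 1.30 in male-typed cells. Genes higher than in other kept cells numbered 172 with a gate of at least 1 UMI, 62 with 3 UMIs, 36 thinned, 56 in cells of at least 20000 UMIs, 29 with abundant genes left out of the scaling, 61 in male-typed cells and 172 in WT alone. Genes lower there numbered 186 thinned, 30 at 20000 UMIs, 285 with equal weight per cell, 178 with the other scaling and 214 at the count minimum of 20 CPM and 50 UMIs. Against Spdef cells without Dll1, higher genes numbered 0 thinned, 3 with equal weight, 14 male-typed, 29 at the low minimum and 87 in NFKO alone, and lower genes 0 with a gate of 1 UMI, 6 thinned, 5 without marked doublets, 5 at a defensin limit of 2%, 11 with equal weight, 5 with the other scaling, 6 in WT alone and 46 in NFKO alone. Against Neurog3 cells, higher genes numbered 91 at 20000 UMIs, and lower genes 160 at 20000 UMIs, 307 male-typed and 1097 at the low minimum. Between libraries, genes higher in NFKO numbered 45 thinned, 16 without marked doublets and 45 at the low minimum, and genes lower in NFKO 38 thinned, 34 male-typed and 41 at the low minimum. The low minimum, single libraries and leaving out cells change which genes or cells enter, and the cause of the other changes was not tested. The single-library counts and the Dll1 gradient's alternatives were chosen after seeing the data. Of values for genes named by rank, 837 stayed, 180 moved and 3 reversed, all in male-typed cells (74 of NFKO): Gip 0.633, Ghrl 0.416 and Isg15 0.875. Of list genes counted between libraries, Cck (0.512), Sst (0.313) and Rbp2 (0.786) also reversed there.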
